A study of Mus musculus with 6 samples.

Results

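The angiopoietin and vascular endothelial growth factor (VEGF) families were followed through a TGFβ1 on/off experiment in EpH4 cells, an epithelial line from mouse mammary gland. The 9 genes *Angpt1*, *Angpt2*, *Angptl2*, *Angptl4*, *Vegfa*, *Vegfb*, *Vegfc*, *Pgf* and *Flt1* were taken by name from the 17428 genes of the table. They were chosen partly because *Angpt1* stood highest in the RE columns, so its levels are given as a description with no test. The E cells were untreated cultures, the M cells had TGFβ1 in the medium for 7 days, and the RE cells had TGFβ1 for 7 days and then medium without it for another 4 days. All 3 states came from the same cell line in serum-containing medium with insulin, and no other allele or agent was named. RNA of each state was sequenced in 2 libraries, E1 and E2, M1 and M2, and RE1 and RE2. The cultures were described as biological replicates, and the sources differ on whether RNA came from 3 of them per state (sample labels) or 2 (methods). RE cultures were also derived from M cultures.

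VEGF ligands are secreted dimers that act mainly on endothelial cells. *Vegfa* acts through the receptor tyrosine kinases *Flt1* and *Kdr* in blood vessel growth, *Vegfb* and *Pgf* bind *Flt1*, and *Vegfc* acts mainly through *Flt4* in lymphatic vessel growth. Angiopoietins bind the endothelial receptor *Tek*: *Angpt1* is the agonist that stabilises vessels, and *Angpt2* is often its antagonist. The angiopoietin-like proteins have a similar fold but do not bind *Tek*, with *Angptl4* known as an inhibitor of lipoprotein lipase and *Angptl2* as an inflammatory and matrix-associated factor.

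In the M cells *Vegfa*, *Vegfc* and *Angptl2* rose over the E cells. *Vegfa* and *Vegfc* then fell after TGFβ1 was withdrawn, while *Angpt1* was highest in the RE cells. The promoters of the 3 genes that rose together in the M cells are shown to let their sequence features be read beside these values. Each is the 250 bases before the RefSeq start on GRCm38.p6, written 5′ to 3′ on the strand of the gene. Capitals mark every match, on either strand, to GGGCGG (the GC box) or CAGAC (a Smad element). *Vegfa* lies at chr17:46032378-46032627 (minus strand), *Vegfc* at chr8:54077282-54077531 (plus strand) and *Angptl2* at chr2:33215711-33215960 (plus strand).
Vegfa: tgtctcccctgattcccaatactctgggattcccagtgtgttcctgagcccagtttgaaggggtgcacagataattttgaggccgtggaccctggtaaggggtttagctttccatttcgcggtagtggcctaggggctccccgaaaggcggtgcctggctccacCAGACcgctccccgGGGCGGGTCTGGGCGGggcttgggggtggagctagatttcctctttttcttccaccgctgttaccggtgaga
Vegfc: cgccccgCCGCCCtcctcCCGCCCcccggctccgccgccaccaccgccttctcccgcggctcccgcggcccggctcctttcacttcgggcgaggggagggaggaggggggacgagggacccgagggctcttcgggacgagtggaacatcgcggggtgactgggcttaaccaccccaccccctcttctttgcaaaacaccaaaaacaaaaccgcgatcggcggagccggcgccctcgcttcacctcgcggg
Angptl2: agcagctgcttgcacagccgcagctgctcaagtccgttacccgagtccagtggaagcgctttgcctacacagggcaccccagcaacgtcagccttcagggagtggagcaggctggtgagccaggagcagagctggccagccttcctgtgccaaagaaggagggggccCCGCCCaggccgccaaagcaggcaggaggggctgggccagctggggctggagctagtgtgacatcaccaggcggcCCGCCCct

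Each of these 3 windows held 2 GC boxes, and 32.7% of the 32841 RefSeq promoters of this length held at least 1. The *Vegfc* boxes lay far from the start, at 243 to 238 and 232 to 227 bases before it, while the *Angptl2* boxes lay at 83 to 78 and 8 to 3 bases. The Smad element was found in the *Vegfa* window alone of the 3, at 86 to 82 and 66 to 62 bases before the start, and 42.2% of promoters held it. The last base of the second Smad element is also the first base of the GC box at 62 to 57 bases. ACGTG (the hypoxia response core, in 16.6% of promoters), CAGGTG (an E-box bound by Snail and Zeb factors, in 17.2%) and TGANTCA (AP-1, in 6.75%) were also searched on both strands and did not occur in these 3 windows. A second RefSeq start of *Vegfa* has its window at chr17:46025164-46025413, downstream of the first on the minus strand. That window held 1 ACGTG, 2 CAGGTG, 1 CAGAC and 1 GC box. Transcripts from the first start can run through it, so these matches may lie in transcribed sequence. The windows were rich in G and C, with 59.2% for *Vegfa*, 71.6% for *Vegfc* and 66.8% for *Angptl2*. GC boxes were also found in the windows of *Vegfb* (4) and *Flt1* (3), which were not called in E vs. M. These matches describe letters in the sequence and not binding sites.

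The libraries held between 35782513 and 47928557 reads' worth of 50 bases. Levels are given as TMM-scaled ppm (parts per 1000000 of the library's bases), and 3 reads' worth, used as the floor, was 0.0635 to 0.0781 ppm. The SD of the log2 difference between the libraries of a state was 0.558 for E, 0.318 for M and 0.309 for RE, so E1 and E2 differed the most. The 7 mammary epithelial markers in the table summed to 1870 and 1520 ppm in E, 1330 and 1340 ppm in M, and 858 and 899 ppm in RE. Of the 6 tested, 3 fell in E vs. M (*Cldn3*, *Cldn4* and *Cldn7*) and 4 fell in E vs. RE (these and *Krt18*). *Krt8* instead averaged 202 ppm in E, 319 ppm in M and 127 ppm in RE. It was the 1 marker of this list called in M vs. RE, where it fell by 1.32 on the log2 scale (limma, adjusted p = 0.000529). *Krt8* was not called in the other comparisons. *Cdh1* was not called in any comparison and *Krt19* did not pass the filter. The 4 basal markers summed to 374 and 306 ppm in E, 787 and 893 ppm in M, and 501 and 499 ppm in RE. Among these, *Acta2*, the smooth muscle actin, averaged 0.466 ppm in E, 79.2 ppm in M and 3.94 ppm in RE. *Krt14* averaged 269, 711 and 330 ppm in the same order. *Trp63* (70.4, 49.8 and 165 ppm) and *Krt5* (0.143, 0.108 and 0.472 ppm) were instead highest in RE. In bulk RNA a change in the number of cells that express a gene and a change in RNA per cell cannot be told apart. This holds for every level below.

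Of the 9 genes, 8 reached the minimum of 500 bases (10 reads' worth) in 2 or more libraries, and *Pgf* did not. Leaving *Angpt1* aside, 7 were tested among 13893 genes. To be a DEG, a gene needed an adjusted p under 0.01 and a log2 fold change beyond 1 or -1. In E vs. M, 3 of the 7 rose and 0 fell, where 17% of all genes tested were called, 8.58% higher and 8.39% lower in M. In M vs. RE, 3 of the 7 fell and 0 rose, where 12.9% of all genes were called and 4.79% were called lower in RE. In E vs. RE, 2 of the 7 rose and 0 fell, where 9.37% were called and 6.2% were called higher in RE. The median log2 fold change of the 7 in the same order of comparisons was 0.85, -1.18 and -0.34, beside 0, -0.02 and 0.01 over all genes tested. The 3 comparisons share libraries and are not independent of each other.

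**Figure D1:**
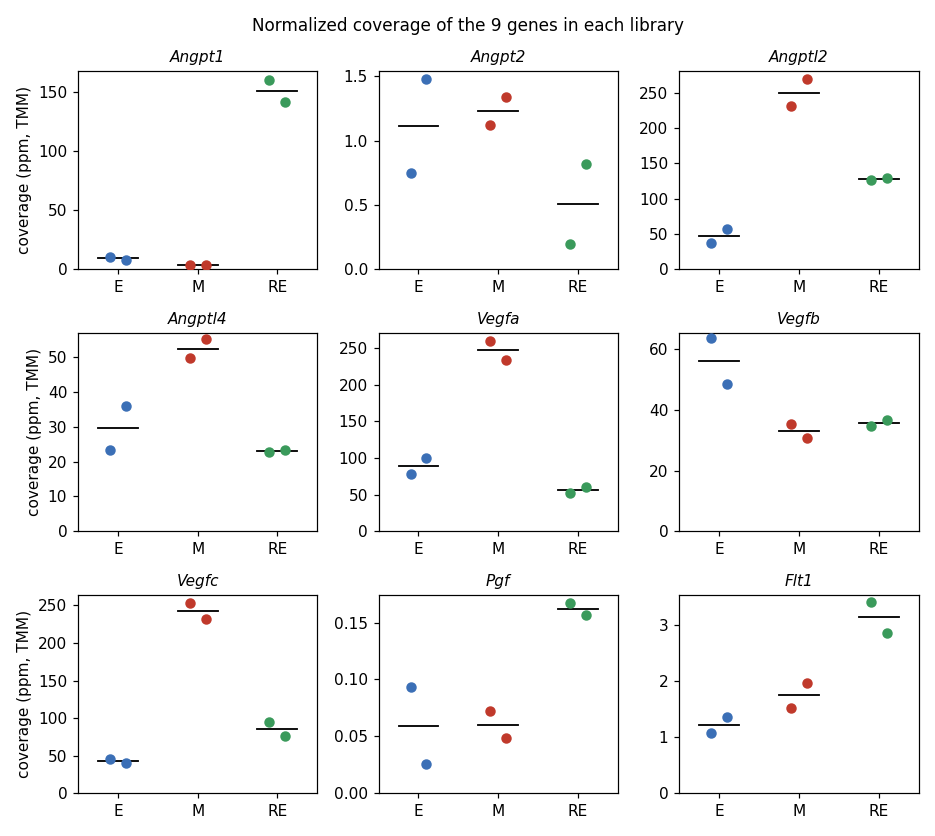
Normalized coverage (ppm, TMM-scaled, linear axes from 0) of the 9 genes in each library, with points for the E, M and RE libraries and a line at the mean of each state. *Vegfa*, *Vegfc* and *Angptl2* stood highest in both M libraries, *Angpt1* reached 160 and 141 ppm in the RE libraries, and *Pgf* stayed at or below 0.167 ppm.

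Among the VEGF ligands, *Vegfa*, the main inducer of blood vessel sprouting, was at 78.4 and 99.2 ppm in the E libraries, 260 and 233 ppm in the M libraries and 52.5 and 59.7 ppm in the RE libraries. No states overlapped, and the RE libraries lay below the E libraries. Over all genes tested, the libraries of the 2 states did not overlap in 70.6% of genes for E vs. M, 78.1% for M vs. RE and 66.7% for E vs. RE, so a lack of overlap is common here. *Vegfa* rose by 1.48 on the log2 scale in E vs. M (SE 0.16, 2.78-fold, limma, adjusted p = 0.000393). It fell by 2.14 in M vs. RE, a 4.4-fold lower level (limma, adjusted p = 8.29e-05). The difference between E and RE was -0.65 (95% confidence interval -1.03 to -0.28, limma, adjusted p = 0.0202) and was not called.

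*Vegfc*, the lymphatic growth factor, was at 46.2 and 40.2 ppm in E, 253 and 232 ppm in M, and 94.6 and 75.8 ppm in RE. Its RE libraries lay between the other states, above both E libraries. *Vegfc* rose by 2.49 on the log2 scale in E vs. M (SE 0.16, 5.6-fold, limma, adjusted p = 3.89e-05) and fell by 1.51 in M vs. RE (2.84-fold lower, limma, adjusted p = 0.000381). In E vs. RE the difference was 0.97, or 1.97-fold, with an adjusted p of 0.00437 (limma), and it missed the call on the fold threshold alone. The calls of *Vegfa* and *Vegfc* in E vs. M and M vs. RE were made under all 15 alternative settings.

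*Vegfb*, a ligand of *Flt1* that is better known for roles in heart and metabolic tissue than for vessel growth, went the other way. It was at 63.8 and 48.7 ppm in E, 35.5 and 30.8 ppm in M, and 34.6 and 36.7 ppm in RE. Both E libraries were above all M and RE libraries, and the M and RE ranges overlapped. The log2 difference was -0.75 in E vs. M (95% confidence interval -1.14 to -0.35, limma, adjusted p = 0.0105) and -0.64 in E vs. RE (adjusted p = 0.0267), and neither was called. Scaled by library totals alone, which moves the median of all genes by -0.29 in E vs. M, the difference was -1.05 and was called (limma, adjusted p = 0.00308).

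*Pgf*, the placental growth factor, had between 1 and 7.9 reads' worth in every library. Its levels were 0.093 and 0.026 ppm in E, 0.0719 and 0.0485 ppm in M, and 0.167 and 0.157 ppm in RE. Both RE libraries were higher than the others, but only by a few reads' worth, and no fold is given at this depth. *Figf* (also called *Vegfd*), the close relative of *Vegfc*, was outside the 9 genes. It was at 4.07 and 2.7 ppm in E, 5.88 and 5.17 ppm in M, and 8.1 and 8.74 ppm in RE, and it rose by 1.32 on the log2 scale in E vs. RE (limma, adjusted p = 0.00629). That call was made in 2 of the 6 fits that left out 1 library.

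Levels of different genes were compared per kb of the longest protein-coding transcript. Summed over *Vegfa*, *Vegfb*, *Vegfc*, *Figf* and *Pgf*, VEGF ligand coverage was 93.4 and 84.5 ppm per kb in E, 209 and 189 in M, and 84.9 and 81.2 in RE. The sum in the M cells was above all other libraries, and E and RE differed by less than the SD of the E libraries. The ligand with the largest share also differed between states. *Vegfb* made up 49.1% ± 5.9 (SD, n = 2) of the sum in E, 13% ± 0.377 in M and 33.5% ± 2.44 in RE. *Vegfc* made up 19.8% ± 0.547 in E, 49.7% ± 0.554 in M and 41.8% ± 5.25 in RE. *Vegfa* made up 29.2% ± 6.87 in E, 35.9% ± 0.149 in M and 19.6% ± 2.39 in RE. *Vegfb* therefore had the largest share in both E libraries and *Vegfc* in all M and RE libraries. *Figf* reached 4.95% ± 0.424 in RE and *Pgf* stayed at or below 0.0947% in every library. These shares were not tested, since 2 libraries against 2 cannot give an exact two-sided permutation p below 0.333.

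**Figure D2:**
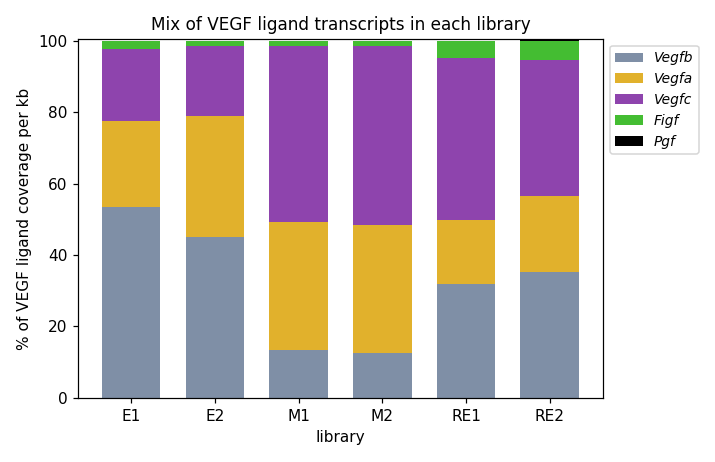
Share of each VEGF ligand (% of summed coverage per kb of transcript) in each of the 6 libraries, as stacked bars. The *Vegfb* share was 53.3 and 45% in the E libraries and 13.3 and 12.7% in the M libraries, while the *Vegfc* share was 49.3 and 50.1% in M and 45.5 and 38.1% in RE.

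Among the angiopoietins, *Angpt1* was at 10.4 and 8.03 ppm in E, 3.17 and 3.21 ppm in M, and 160 and 141 ppm in RE. The states did not overlap, with RE highest, then E, then M. The mean RE level was 47.2-fold that of M and 16.3-fold that of E, and the mean E level was 2.89-fold that of M. *Angpt1* rested on 132 reads' worth in each M library and 7580 and 6180 in the RE libraries. By the mouse annotation used for lengths, 14.2% of its exon bases are overlapped by *Gm17473* on the other strand. Whether the counting used strand was not stated, so coverage of the 2 genes may be shared.

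*Angpt2*, the context-dependent antagonist, was at 0.749 and 1.48 ppm in E, 1.12 and 1.34 ppm in M, and 0.199 and 0.822 ppm in RE. The E and M ranges overlapped, E and RE also overlapped, and the lowest library was RE1 with 9.42 reads' worth. The log2 differences were 0.20 in E vs. M (limma, adjusted p = 0.789), -1.34 in M vs. RE (adjusted p = 0.101) and -1.14 in E vs. RE (adjusted p = 0.149), and none was called. The sign in E vs. M turned to -0.07 with library totals alone and to -0.25 without E1.

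*Angpt4*, the remaining *Tek* ligand of the mouse, was at 1.5 and 2.64 ppm in E, 3.52 and 4.03 ppm in M, and 14.9 and 11.2 ppm in RE. Its RE libraries were above all others. *Angpt4* rose by 1.75 on the log2 scale in M vs. RE (limma, adjusted p = 0.00371) and by 2.63 in E vs. RE (6.3-fold, adjusted p = 0.00116). The first call was made in 2 and the second in 4 of 6 fits that left out 1 library. Per kb, the 3 *Tek* ligands summed to 3.36 ± 0.102 ppm in E, 2.71 ± 0.205 in M and 41 ± 4.31 in RE (SD, n = 2). *Angpt1* made up 64.5% ± 13.5 of that sum in E, 27.7% ± 1.87 in M and 86.1% ± 1.03 in RE, and *Angpt4* made up the largest share in M with 59.6% ± 1.21.

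Among the angiopoietin-like genes, *Angptl2* was at 36.5 and 56.8 ppm in E, 231 and 270 ppm in M, and 127 and 129 ppm in RE. The RE libraries lay between E and M, and no states overlapped. *Angptl2* rose by 2.45 on the log2 scale in E vs. M (SE 0.21, 5.37-fold, limma, adjusted p = 0.000142). It also rose by 1.49 in E vs. RE (2.75-fold, limma, adjusted p = 0.00277). The difference of -0.96 in M vs. RE was not called (95% confidence interval -1.45 to -0.47, limma, adjusted p = 0.0118). The E vs. RE call was not made without RE1 (adjusted p = 0.0394) or without RE2 (adjusted p = 0.0309).

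*Angptl4*, a target of hypoxia and of PPAR receptors in many tissues, was at 23.5 and 36.1 ppm in E, 49.7 and 55.4 ppm in M, and 22.7 and 23.4 ppm in RE. The M libraries were above all others, and both RE libraries lay just below E1. *Angptl4* fell by 1.18 on the log2 scale in M vs. RE (2.28-fold lower, limma, adjusted p = 0.0045). That call was not made without M1, M2, RE1 or RE2 (adjusted p from 0.0357 to 0.0508) or with library totals alone, where the difference was -0.98. In E vs. M the difference was 0.85 (95% confidence interval 0.36 to 1.33, limma, adjusted p = 0.0145) and was not called. It was 0.54 without E1 and 1.13 without E2, fits in which 1 E library gives no measure of the E spread.

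Other angiopoietin-like genes moved in different directions. *Angptl6* was at 20.2 and 34.1 ppm in E, 0.312 and 0.638 ppm in M, and 1.01 and 0.937 ppm in RE. It fell by 5.58 on the log2 scale in E vs. M (limma, adjusted p = 4.07e-05) and fell by 4.62 in E vs. RE (adjusted p = 0.00037). Of its exon bases, 16.8% are overlapped by *A230050P20Rik* on the other strand. *Angptl7*, at 2.48 and 3.95 ppm in E, had 0.0762 and 0.444 ppm in M and 10.5 and 11.2 ppm in RE. It fell by 3.38 in E vs. M (limma, adjusted p = 0.00165) and rose by 5.14 in M vs. RE (adjusted p = 0.000282), and its levels were ordered RE, E, M, as were those of *Angpt1*, although the difference of 1.76 in E vs. RE was not called (adjusted p = 0.0342). The M level of *Angptl7* rested on 3.18 and 18.3 reads' worth, near the floor in M1, so the sizes of its fall and rise are uncertain. *Angptl1* did not pass the filter.

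**Figure D3:**
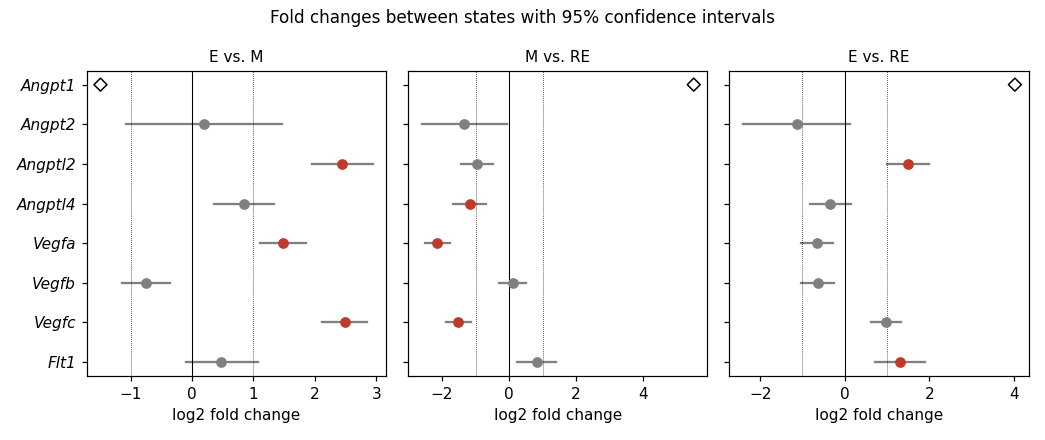
Log2 fold changes with 95% confidence intervals in E vs. M, M vs. RE and E vs. RE (positive values are higher in the second state). Red points are DEGs, grey points are genes tested and not called, open diamonds give *Angpt1* without a test, and dotted lines mark a log2 fold change of 1 in either direction. *Vegfa*, *Vegfc* and *Angptl2* lie at 1.48, 2.49 and 2.45 in E vs. M, and *Vegfa*, *Vegfc* and *Angptl4* at -2.14, -1.51 and -1.18 in M vs. RE.

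Of the receptors, *Flt1* was the single member. *Flt1*, the receptor and decoy for *Vegfa*, *Vegfb* and *Pgf*, was at 1.08 and 1.35 ppm in E, 1.52 and 1.97 ppm in M, and 3.41 and 2.86 ppm in RE. The states did not overlap, but the highest library held only 161 reads' worth. *Flt1* rose by 1.30 on the log2 scale in E vs. RE (95% confidence interval 0.71 to 1.89, 2.58-fold, limma, adjusted p = 0.00866). The call lay close to the threshold and was not made in 10 of 15 alternatives, among them the fits without RE1 (adjusted p = 0.101) and RE2 (adjusted p = 0.0488). The differences of 0.48 in E vs. M (adjusted p = 0.16) and 0.82 in M vs. RE (adjusted p = 0.0435) were not called.

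Of 7 other receptors and co-receptors in the table, *Kdr*, *Flt4*, *Tek*, *Tie1* and *Ptprb* did not pass the filter. *Kdr*, the main signalling receptor of *Vegfa*, had at most 3 reads' worth in any library. *Tek*, the receptor of the angiopoietins, had between 3.7 and 11 reads' worth, highest in E1. The neuropilins, co-receptors that bind VEGF ligands and semaphorins, were the well-covered members of this group. *Nrp1* was at 42.1 and 48.9 ppm in E, 169 and 175 ppm in M, and 177 and 151 ppm in RE. It rose by 1.92 on the log2 scale in E vs. M (3.77-fold, limma, adjusted p = 7.8e-05) and by 1.85 in E vs. RE (3.61-fold, adjusted p = 0.000382), with a difference of -0.07 in M vs. RE (95% confidence interval -0.4 to 0.27). *Nrp2* was at 118 and 232 ppm in E, 446 and 451 ppm in M, and 417 and 412 ppm in RE. It rose by 1.44 in E vs. M (limma, adjusted p = 0.00554), a call made in 1 of 6 fits that left out 1 library, and the difference of 1.32 in E vs. RE was not called (adjusted p = 0.0119). Per kb, *Flt1* made up 0.22% ± 0.0362 to 0.469% ± 0.0914 (SD, n = 2) of the summed coverage of VEGF receptors and neuropilins in the 3 states, and *Nrp1* and *Nrp2* made up nearly all the rest.

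Markers of other cells were also read in the same libraries. The 12 endothelial markers in the table summed to 1.31 and 1.21 ppm in E, 4.17 and 4.87 ppm in M, and 1.39 and 1.91 ppm in RE. Only *Pecam1*, *Esam* and *Cdh5* passed the filter. *Kdr*, *Tie1*, *Cldn5* and *Plvap* were at or under 3 reads' worth in all libraries. *Cdh5*, the vascular cadherin, was at 0 in both E libraries, 2.33 and 2.07 ppm in M, and 0.0423 and 0.091 ppm in RE, and made up much of the difference in the sum. The 6 leukocyte markers summed to 6.89 and 10.7 ppm in E, 33.1 and 37 ppm in M, and 7.47 and 7.56 ppm in RE, of which *Csf1r* alone gave 25.8 and 29.9 ppm in M, while *Ptprc* and *Cd3e* were at or under 3 reads' worth throughout. The 6 pericyte markers summed to 136 and 193 ppm in E, 760 and 742 ppm in M, and 910 and 793 ppm in RE, mostly from *Pdgfrb* and *Mcam*, which mesenchymal cells also express. The endothelial, leukocyte and basal sums were highest in M, as were *Vegfa*, *Vegfc* and *Angptl2*. The basal sum came mostly from *Krt14*, while *Trp63* and *Krt5* were highest in RE. The pericyte sum was higher in both M and RE than in E and had its highest value in RE1. Of its genes, *Pdgfrb* averaged 80.1, 433 and 750 ppm in E, M and RE, while *Mcam* averaged 44, 314 and 75.5 ppm. *Notch3* was lowest in M, with 39.9, 2.87 and 25.9 ppm, and *Cspg4* was lowest in RE, with 0.507, 0.356 and 0.178 ppm. The mammary epithelial sum was lowest in RE. The part of these markers in the results was not tested.

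Compared per kb, the order of the 9 genes differed between states. In E, *Vegfb* was highest with 43.9 ± 8.33 ppm per kb (SD, n = 2), followed by *Vegfa* with 25.7 ± 4.28, *Vegfc* with 17.6 ± 1.73, *Angptl2* with 14 ± 4.3 and *Angptl4* with 9.01 ± 2.68. *Vegfc* and *Angptl2* differed by less than the SD of *Angptl2*. In M, *Vegfc* led with 98.9 ± 6 ppm per kb, ahead of *Angptl2* with 75 ± 8.32 and *Vegfa* with 71.5 ± 5.43, the last 2 of which differed by less than their SDs. In RE, *Angptl2* with 38.3 ± 0.582, *Angpt1* with 35.3 ± 3.29 and *Vegfc* with 34.8 ± 5.45 ppm per kb were highest and differed by less than the SD of *Vegfc*. *Angpt1* was at 2.16 ± 0.389 in E and 0.749 ± 0.00606 in M on the same scale. *Angpt2*, *Flt1* and *Pgf* were at or below 0.455 ppm per kb in every state.

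The genes whose pattern over the 6 libraries was most like that of each member were found by the Euclidean distance between mean-centred log2 values. Nearest to *Vegfa* were *Ptgs2* (distance 0.112), the inducible prostaglandin synthase, *Dbn1* (0.201) and *Rph3a* (0.222), where the median over all genes was 2.34. *Rph3a* averaged 0.0459 ppm in E, 0.299 ppm in M and 0 in RE, so its likeness rests on few reads and on the pseudocount. Nearest to *Vegfc* were *Fcer1g* (0.212), *Vcam1* (0.284) and *Vwa1* (0.368), beside a median of 2.63. Nearest to *Angptl2* were *Spsb1* (0.233), *Ccl17* (0.29) and *Ltbp2* (0.297). *Fcer1g* and *Ccl17* averaged only 0.135 and 0.205 ppm in E, so the pseudocount also weighs on their distances. *Angpt1* was nearest to *1100001G20Rik* (0.757), *Atoh8* (1.11) and *Pi15* (1.15), beside a median of 5.79. All of them were highest in RE, which follows from their choice by likeness to *Angpt1*. Of these, *1100001G20Rik* averaged 0 in M and *Pi15* 0.0361 ppm, where the pseudocount sets much of the distance. *Angptl4* was nearest to *Itpr3* (0.136), *Spire1* (0.208) and *Cnnm3* (0.218), and *Vegfb* to *Tinf2* (0.0782), *Acbd6* (0.0984) and *Terf1* (0.112). *Flt1* was nearest to *A530054K11Rik* (0.138), *Ppm1k* (0.223) and *2810408P10Rik* (0.243), and *Angpt2* to *Syk* (0.461), *Hist1h2bk* (0.564) and *AC156546.7* (0.583).

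The wider pathways were read from a list of 76 genes in the table, of which 66 passed the filter. In E vs. M, 19 rose and 9 fell (42.4% called). In M vs. RE, 10 rose and 12 fell (33.3%). In E vs. RE, 12 rose and 5 fell (25.8%). The median log2 fold change of the list was 0.28, 0.01 and 0.31. These shares stand beside 17%, 12.9% and 9.37% of all genes, but the list was drawn up with earlier results of these data known. Without M1 or M2, 9 genes were called in M vs. RE, and without RE1 or RE2, 10 were called. In E vs. RE, 1 was called without RE1 and 3 without RE2.

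Of 14 genes that process or bind the ligands, 8 rose and 1 fell in E vs. M, and 1 rose and 7 fell in M vs. RE. In E vs. RE, 1 rose and 2 fell. The shares called were 64.3%, 57.1% and 21.4%, beside the 17%, 12.9% and 9.37% of all genes. *Ccbe1*, the secreted protein that promotes cleavage of *Vegfc* into its active form, was at 12.3 and 23.6 ppm in E, 181 and 186 ppm in M, and 15.8 and 11.6 ppm in RE. It rose by 3.42 on the log2 scale in E vs. M (limma, adjusted p = 0.000147) and fell by 3.75 in M vs. RE (adjusted p = 0.000104), and its E and RE ranges overlapped. *Ctgf*, a matricellular protein that binds *Vegfa*, averaged 176 ppm in E, 765 ppm in M and 64 ppm in RE, and it rose by 2.13 and then fell by 3.58 (adjusted p = 7.96e-05 and 1.26e-05). The RE level of *Ctgf* was also below E, where it fell by 1.44 (limma, adjusted p = 0.00119). That call was not made in every fit that left out 1 library.

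*Lpl*, the lipoprotein lipase that *Angptl4* inhibits, was at 62.7 and 93.6 ppm in E, 5.74 and 6.21 ppm in M, and 34.1 and 36 ppm in RE. *Lpl* fell by 3.66 on the log2 scale in E vs. M (limma, adjusted p = 2.2e-05) and rose by 2.53 in M vs. RE (adjusted p = 0.000108). Its RE level stayed below E, with a difference of -1.13 (limma, adjusted p = 0.00643), a call not made in most fits that left out 1 library. The integrins of this list, cell surface receptors for matrix that also bind angiopoietins or angiopoietin-like proteins, were high in M. Not all of them fell after it. *Itgb5*, named here after its values were seen, averaged 322, 730 and 636 ppm in E, M and RE and was not called in M vs. RE. *Itga5*, a partner described for *Angptl2*, averaged 96 ppm in E, 1100 ppm in M and 175 ppm in RE, and *Itgav* averaged 68.6, 608 and 203 ppm. Both rose in E vs. M, by 3.53 and 3.21 (limma, adjusted p = 9.79e-06 and 8.28e-05), and both fell in M vs. RE, by 2.65 and 1.58 (adjusted p = 2.43e-05 and 0.00265), the *Itgav* fall being called in 2 of 6 fits that left out 1 library. *Itgav* stayed above E in RE, by 1.62 (limma, adjusted p = 0.0035), a call not made in most fits that left out 1 library. *Itgb3* was at 0.0231 and 0 ppm in E, at or under the floor, and at 10.5 and 11.8 ppm in M. In RE it was at 0.0838 and 0.0678 ppm, or 3.96 and 2.98 reads' worth, at or near the floor. Its rise and fall were both called (limma, adjusted p = 1.14e-05 and 1.69e-05), and the pseudocount sets part of their size.

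**Figure D4:**
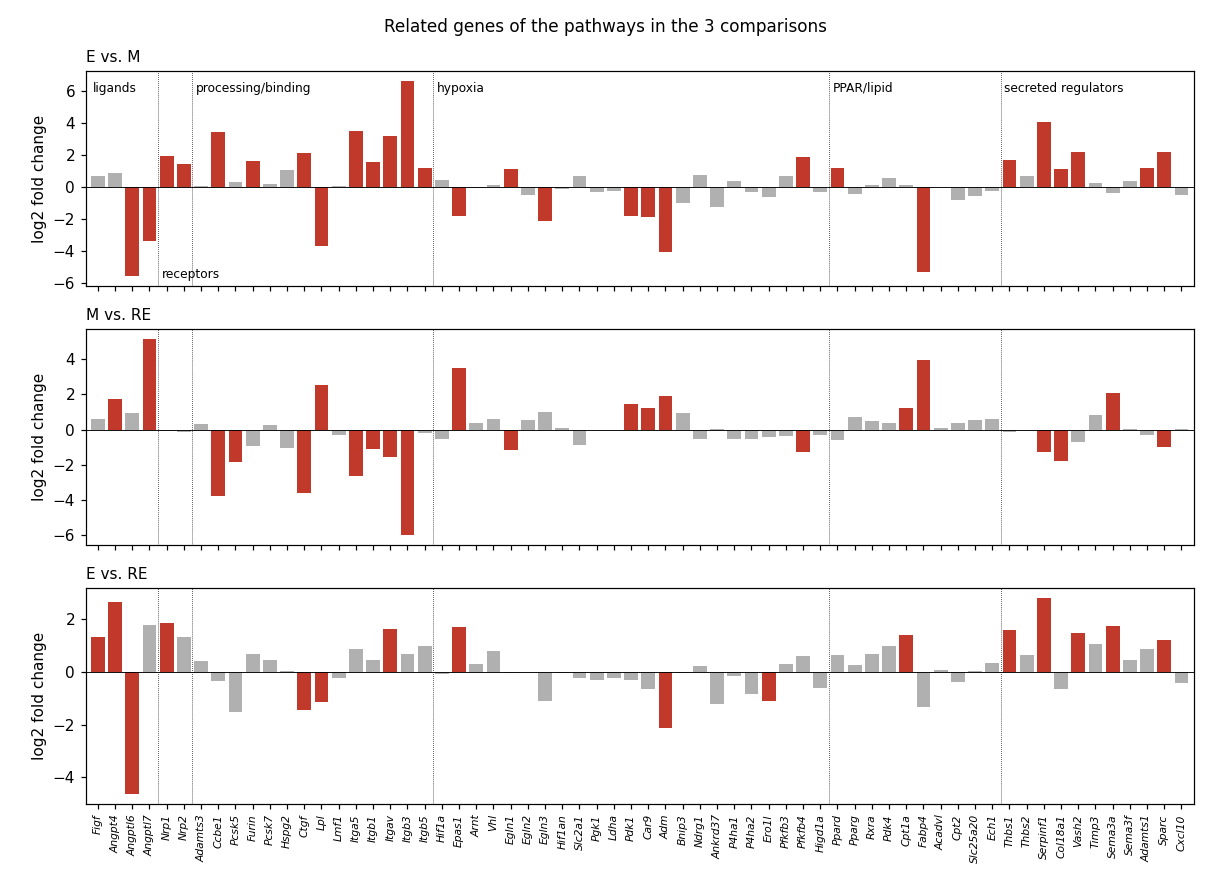
Log2 fold changes (bars, axes start at 0 in both directions) of related genes in the 3 comparisons, grouped by list, with DEGs in red and genes not called in grey. Among the genes that process or bind the ligands, *Ccbe1*, *Ctgf*, *Itga5*, *Itgav* and *Itgb3* rose in E vs. M and fell in M vs. RE, and *Lpl* did the opposite.

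The hypoxia pathway, which drives *Vegfa* and *Angptl4* in low oxygen, did not move in a single direction. Of 23 genes tested, 2 rose and 5 fell in E vs. M, and 4 rose and 2 fell in M vs. RE. In E vs. RE, 1 rose and 2 fell. The shares called were 30.4%, 26.1% and 13%, beside 17%, 12.9% and 9.37% of all genes. *Adm*, the vasodilator adrenomedullin, averaged 21.5 ppm in E, 1.18 ppm in M and 4.84 ppm in RE and fell by 4.07 on the log2 scale in E vs. M (limma, adjusted p = 4.78e-05). In the same comparison *Car9*, a carbonic anhydrase, fell by 1.86 (limma, adjusted p = 0.00016). *Pdk1*, a pyruvate dehydrogenase kinase, fell by 1.77 (adjusted p = 0.000446) and *Egln3*, a prolyl hydroxylase, by 2.10 (adjusted p = 0.00384). *Adm*, *Pdk1* and *Car9* rose in M vs. RE, by 1.93, 1.47 and 1.22 (limma, adjusted p = 0.00162, 0.00129 and 0.0014). None of these rises was called in every fit that left out 1 library. The part of hypoxia in the changes of *Vegfa* and *Angptl4* was not tested. The *Egln3* call, like the *Epas1* call in E vs. M, was made in 4 of the 6 fits that left out 1 library. *Pfkfb4*, a regulator of glycolysis, rose by 1.91 in E vs. M (limma, adjusted p = 0.000465) and fell by 1.29 in M vs. RE (adjusted p = 0.0034), the fall being called in 2 of 6 fits that left out 1 library. *Epas1*, which encodes HIF-2α, was at 16.2 and 29.9 ppm in E, 5.5 and 6.97 ppm in M, and 70.4 and 74.7 ppm in RE. It fell by 1.82 in E vs. M (limma, adjusted p = 0.00192) and rose by 3.53 in M vs. RE (adjusted p = 0.000103), with its states in the order RE, E, M. *Hif1a*, named here after its values were seen, averaged 166, 230 and 157 ppm and was not called.

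Of 11 PPAR and lipid genes tested, 1 rose and 1 fell in E vs. M, and 2 rose and 0 fell in each of the other comparisons. That is 18.2% called in each comparison, near the 17% of all genes in E vs. M and beside 12.9% and 9.37% in the others. *Ppard*, a nuclear receptor that induces *Angptl4*, was at 48.6 and 77.9 ppm in E, 140 and 146 ppm in M, and 90 and 99.4 ppm in RE, and rose by 1.22 on the log2 scale in E vs. M (limma, adjusted p = 0.00369), a call made in 1 of 6 fits that left out 1 library. *Fabp4*, a fatty acid binding protein, was at 8.98 and 3.1 ppm in E, at or under the floor in both M libraries and at 2.22 and 1.87 ppm in RE, and was called in E vs. M (limma, adjusted p = 0.000164) and M vs. RE (adjusted p = 0.00079). *Cpt1a*, which brings fatty acids into mitochondria, averaged 97.2 ppm in E, 106 ppm in M and 249 ppm in RE and rose by 1.22 over M and by 1.38 over E (limma, adjusted p = 0.00189 and 0.0019), calls made in 2 and 4 of 6 such fits. *Cpt1a* was thus highest in RE, whereas *Angptl4* was highest in M.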

How the data were processed

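EpH4 RNA was sequenced on an Illumina Genome Analyzer, with 2 libraries for each of the 3 states. The authors mapped unique reads to NCBI-m37 with Bowtie and TopHat2 and used edgeR for DEGs. The deposited values behave as coverage (signal), that is, as sequenced bases of 50-base reads summed per gene, and the step that summed them is not given in the sources used here. Each column was matched to its library by its name and 0 other columns were present. Of values from 1 to 400, 44.8 to 48.4% were whole multiples of 50, so counts were not recovered.

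Coverage was scaled by unweighted TMM (trimming 30% by log ratio and 5% by mean level) to ppm. Genes under 500 bases in more than 4 libraries were dropped. In R 4.3.3, limma 3.58.1 was fitted to log2(ppm + 0.1) over all 6 libraries with a trend on mean level, and a fold change on this scale understates that of low genes. DEGs, over 13893 genes, had a Benjamini-Hochberg adjusted p under 0.01 and a log2 fold change beyond 1 or -1, as in the methods of the study, whose results name a fold of 1.5, tried as an alternative. With 2 libraries per state, p-values measure only the spread between these libraries, and depths and floors cover counting error only. Tested on simulated data for E vs. M (13682 genes run, 199 of them changed by a log2 value of 2), the fit recovered 93.5% with 1 false call. The simulation gave every library the same spread, whereas E1 and E2 differed the most here. It also changed few genes, whereas 17% were called in E vs. M. Its rate of false calls therefore does not carry over to these data.

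The members and gene lists were chosen with earlier results of these data known. Named genes were the members, all related ligands and receptors, up to 6 DEGs per list with the largest change, and the 3 genes with the pattern most like each member. Some items that this rule covers are not reported here, although they stay in the counts. Lengths and exon overlaps came from a GRCm38 annotation (GENCODE M21), newer than the authors' build, and promoters from RefSeq on GRCm38.p6. *Angpt1*, *Angpt2* and *Angptl4* had no promoter entry. The GC box search and an alternative transcript length were added after the data were seen. Alternatives changed the pseudocount, filter, scaling, samples, weights, thresholds and replicate block, and left out each library.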

Additional observations from a re-analysis of the deposited data

How the results depend on the processing

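Of 357 recomputed member values, 329 kept their direction and side of the threshold, 17 lost and 3 gained a call, 2 reversed and 6 values of *Angpt1*, which has no test, moved by more than the spread between libraries. The reversals were *Angpt2* in E vs. M, at -0.07 with library totals only and -0.25 without E1 (0.62 without E2), and none was called. Of the members called in E vs. RE, *Angptl2* and *Flt1*, 1 (*Angptl2*) was called with a pseudocount of 1 ppm, no filter, library totals only, only the 2 groups compared, or array weights. Leaving out each library in turn gave 3 to 4 members in E vs. M, 2 to 3 in M vs. RE and 0 to 3 in E vs. RE, and 19 to 32, 9 to 23 and 1 to 23 genes of the pathway list, where 28, 22 and 17 were called with all libraries. With 1 library left in a state, that library was assumed to vary like the others. Library totals only moved the share of DEGs that rose in E vs. M from 100 to 75% among members and from 67.9 to 56.5% in the pathway list. With no filter *Pgf* gave log2 differences of 0.03, 0.71 and 0.75 in E vs. M, M vs. RE and E vs. RE, none called. With the union of exons as length, *Vegfc* made up 23.6, 55.1 and 47.1% of VEGF ligand coverage in E, M and RE, with the same leading ligand in each state. The causes of these shifts were not tested.

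Libraries with the same replicate number correlated at 0.27 (E and M), 0.06 (E and RE) and 0.12 (M and RE) in their deviations. Whether they share more than a number is not given, and these correlations cannot decide it. With a replicate block, 1 member (*Angptl2*) was called in E vs. RE, and *Flt1* had an adjusted p of 0.0117. At no more than 7.9 reads' worth, no difference was detectable for *Pgf*. *Kdr* and *Tek* did not pass the filter and were not tested.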

Other observations

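Secreted proteins that regulate angiogenesis, most of them known as inhibitors, were read as a separate list. Of 11 genes tested, 6 rose and 0 fell in E vs. M, 1 rose and 3 fell in M vs. RE, and 5 rose and 0 fell in E vs. RE. The shares called were 54.5%, 36.4% and 45.5%, beside 17%, 12.9% and 9.37% of all genes, and the list was drawn up with earlier results known. *Thbs1*, the matrix protein thrombospondin-1, was at 1000 and 1290 ppm in E, 3620 and 3850 ppm in M, and 3390 and 3420 ppm in RE, and rose by 1.72 on the log2 scale in E vs. M and 1.58 in E vs. RE (limma, adjusted p = 0.000372 and 0.00128). Its E vs. RE call was not made in every fit that left out 1 library. The difference of *Thbs1* in M vs. RE was -0.13 and was not called. *Serpinf1*, which encodes pigment epithelium-derived factor, was at 1.3 and 1.35 ppm in E, 22.7 and 26.2 ppm in M, and 9.82 and 9.77 ppm in RE. It rose by 4.10 in E vs. M (limma, adjusted p = 9.79e-06), fell by 1.30 in M vs. RE (adjusted p = 0.00129, called in 2 of 6 fits that left out 1 library) and was still 7.4-fold above E in RE (adjusted p = 0.000223).

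*Col18a1*, the collagen from which endostatin is cut, averaged 162 ppm in E, 355 ppm in M and 102 ppm in RE. It rose by 1.14 in E vs. M (limma, adjusted p = 0.000522) and fell by 1.81 in M vs. RE (adjusted p = 7.07e-05). The difference in E vs. RE was -0.67 and was not called for its size (adjusted p = 0.00857). *Sparc*, a matricellular protein that binds VEGF, averaged 232, 1080 and 536 ppm, and *Vash2*, a vasohibin that is known to promote vessel growth and is 1 of the genes counted in E vs. M and in E vs. RE, averaged 2.45, 11.5 and 6.93 ppm, and both rose in E vs. M, by 2.21 and 2.18 (limma, adjusted p = 2.73e-05 and 0.00018). *Sema3a*, a semaphorin that competes with VEGF for *Nrp1*, was at 27.1 and 35.1 ppm in E, 26.8 and 21.8 ppm in M, and 112 and 93.9 ppm in RE, and rose by 2.08 in M vs. RE (limma, adjusted p = 0.00019), in the state where *Angpt1* was highest.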
